A study of Arabidopsis thaliana with 15 samples.

Results

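The 44 genes described here are known genes of mature pollen and of the pollen tube, chosen by name from a table of 33326 Arabidopsis thaliana genes. They were measured by RNA-seq in 15 libraries from 5 genotype groups, with 3 libraries in each. Besides wild-type Col-0 there were lines labelled myb3r1, myb3r4 and myb3r1myb3r4 (the double mutant), and pMYB3R4::GFP-MYB3R4mNES (the mNES line), whose name gives GFP-tagged MYB3R4 under the MYB3R4 promoter. MYB3R1 and MYB3R4 are MYB transcription factors of the mitotic cell cycle. Each library was made from a pool of 36 dissected inflorescence meristems of plants whose stem had reached about 1 cm, and fully open flowers had been removed. All plants grew with 16 h of light and 8 h of dark a day, at 21 °C by day and 17 °C by night. In each group the labels also count the 3 libraries as the first, the second and the third under the words shift experiment, in step with the replicate numbers, and do not say what that was. They say nothing of closed buds and do not give the mutant alleles, what mNES stands for, the background that carries the transgene, or whether each replicate was grown or collected on its own. The p-values therefore measure the spread between these libraries.

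The pollen tube grows only at its tip and must cross the pistil without bursting. Small secreted RALF peptides bind the receptor kinases ANX and BUPS at the tip and the LRX proteins of the cell wall, and this module keeps the tube intact. PRK receptor kinases and ROPGEF exchange factors switch on ROP GTPases, while calcium channels and pumps, proton pumps, actin regulators and wall enzymes carry out growth. In pollen, MADS factors of the MIKC* class bind a MEF2-type CArG box and control many late pollen genes, and MYB97, MYB101 and MYB120 act in the tube as it nears the ovule. These genes mark a cell type that is not part of a meristem. In bulk samples such as these, fewer pollen cells and less RNA per pollen cell cannot be told apart.

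The known binding preference of the MIKC* factors made the promoters worth showing. In the window from 250 bases before to 50 bases after the annotated gene start (TAIR10.1, RefSeq), a MEF2-type CArG box was found in 12 of 44 genes (27.3%). The same box was found in 751 of 32569 genes with a position (2.31%), in 2.53% of the protein-coding genes and in 2 of 30 further pollen genes (6.67%). Because the box reads alike on both strands, each match was counted once. Of the 12 boxes, 10 are given below in the direction of the gene, with the 10 bases of the box in capitals and 7 bases on each side.
VGD1: cacggtcCTAATTTTAGaaaccaa
VGDH1: caagttaCTAATTTTAGaattcaa
AGL104: aaaaattCTAATTTTAGttcctat
BUPS1: caatttgCTAAATATAGaccattg
BUPS2: cagtttaCTAAAAATAGaaacatc
LRX9: acatcttCTAATTATAGtctcaaa
LRX10: gagttttCTAAATATAGggaaaag
STP9: tcgattcCTAATAATAGataacga
ADF7: tagattgCTAAAAATAGagaagaa
ADF10: agaaatgCTAAAATTAGtgtgaaa

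Of the boxes shown, that of VGDH1 lay 30 bases after the gene start and the others 57 to 119 bases before it. VGD1 and VGDH1 are neighbours on chromosome 2 (chr2:19327853-19330197 and chr2:19324134-19326484, both on the minus strand), and their boxes hold the same 10 bases. The box of AGL104, itself a MIKC* gene, has these 10 bases as well. VGD1 and VGDH1, BUPS1 and BUPS2, ADF7 and ADF10, and LRX9 and LRX10 share 89.4%, 81.6%, 85.1% and 68.2% of aligned transcript bases. The genes with a box are therefore not all independent of each other. The windows of VGD1 (chr2:19330148-19330447, minus strand) and of the hexose transporter gene STP9 (chr1:18635705-18636004, plus strand) are shown whole, since both genes stood among the more abundant of the 44 and fell in the double mutant.
VGD1: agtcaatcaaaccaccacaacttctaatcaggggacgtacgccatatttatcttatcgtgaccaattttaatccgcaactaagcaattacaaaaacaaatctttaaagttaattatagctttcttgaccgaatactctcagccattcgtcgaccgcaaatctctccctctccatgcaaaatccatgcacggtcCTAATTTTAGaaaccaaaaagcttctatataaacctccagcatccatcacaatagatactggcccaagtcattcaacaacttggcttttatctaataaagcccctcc
STP9: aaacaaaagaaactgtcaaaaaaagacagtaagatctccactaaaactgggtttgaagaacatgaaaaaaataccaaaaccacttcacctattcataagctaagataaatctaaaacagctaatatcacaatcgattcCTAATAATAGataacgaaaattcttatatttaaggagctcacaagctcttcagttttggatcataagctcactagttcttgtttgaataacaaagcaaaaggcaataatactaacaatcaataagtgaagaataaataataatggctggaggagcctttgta

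Other short motifs set the 44 promoters apart less or not at all. AGAAA, a motif known from pollen promoters, was present on either strand in 95.5% of the 44 windows and 87.6% of all windows. GTGA was present in 84.1% and 84.7%, and AACGG, the core of the element bound by MYB3R factors, in 18.2% and 24.8%. Matches of different motifs can share end bases and were counted separately. A match is a description of the letters and not a measured binding site.

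The deposited values were TPM, which are corrected for transcript length, so levels can be compared between genes. Expression was tested with limma on log2(TPM + 0.5) over 21737 genes that reached 1 TPM in at least 3 libraries, with Benjamini-Hochberg adjustment over all of them and a threshold of 0.05. Fold changes below are on this log2(TPM + 0.5) scale unless a ratio of mean TPM is named, and they understate the change of genes near 0. Of the 44 genes, 39 passed the filter. MYB97, MYB120, PRK5, PRK6 and CPK34 did not. ROPGEF12, ROPGEF8 and CSLD1 passed only through the mNES line, and 8 of the 39 had fewer than 3 libraries at 1 TPM outside that line, so their inclusion was tied to a high level there. Without any filter all 44 could be tested, and those counts are given beside the main ones.

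As a check of the label, the shoot meristem gene STM was clearly present (44.2 to 62.0 TPM), while the stem cell gene CLV3 stood at 0 to 0.275 TPM in all libraries. AP1, a gene of floral meristems and so no check of an inflorescence meristem, stood at 119 to 175 TPM. MYB3R1 was not lower in myb3r1 (17.2 to 18.1 TPM against 13.1 to 13.5 TPM in Col-0). MYB3R4 was not lower in myb3r4 (12.7 to 13.4 TPM against 10.4 to 12.8 TPM), so transcript level does not check these labels. MYB3R4 stood at 58.9 to 63.5 TPM in the mNES line. All libraries held a similar number of genes at 1 TPM or more (20370 to 20965). The strand of the libraries is not given, and overlapping or near-identical genes are named below where they touch a result.

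Most pollen genes fell in the double mutant. Of the 39 tested, 35 were lower than in Col-0 and 0 were higher, against 17.1% lower and 24.5% higher among all genes tested. Without a filter 38 of 44 were lower, against 13.3% of all. The median fold change of the 39 was -1.33, and that of all genes 0.05. Under median-of-ratios scaling 36 were lower and 0 higher, although the split over all genes turned from 5321 higher and 3716 lower to 3691 higher and 4666 lower. In 37 of the 39 genes every double mutant library lay below every Col-0 library (20.9% of all genes).

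The single mutants lay in between and the mNES line above. In myb3r1, 15 of 39 genes were lower and 0 higher, against 3.1% lower and 3.16% higher among all genes tested. In myb3r4, 6 were lower and 0 higher, against 3.04% and 4.55%. In the mNES line, 14 were higher and 0 lower, against 7.6% higher and 9.39% lower. Without a filter these counts were 17, 9 and 16 of 44, against 2.23%, 2.11% and 6.15% of all genes. Median fold changes of the 39 were -0.70, -0.53 and 0.43, against 0.01, 0.00 and -0.03 for all genes. Under median-of-ratios scaling the split over all genes in the mNES line went from 1653 higher and 2042 lower to 2180 higher and 1484 lower, with 14 pollen genes higher and 0 lower. These comparisons all use the same 3 Col-0 libraries. The group means ran from the mNES line through Col-0 and both single mutants down to the double mutant in 21 of the 39 genes, an order found in 7.38% of all genes. This order needs a high level in the mNES line, and 8 of the 39 were tested only with the help of such a level. The count therefore only describes the 39, and it was not made without the filter. Over all 44, the mNES line had the highest mean in 33 and the double mutant the lowest in 32. The shares of all genes with these extremes were not counted, so both counts only describe the 44.

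**Figure D1:**
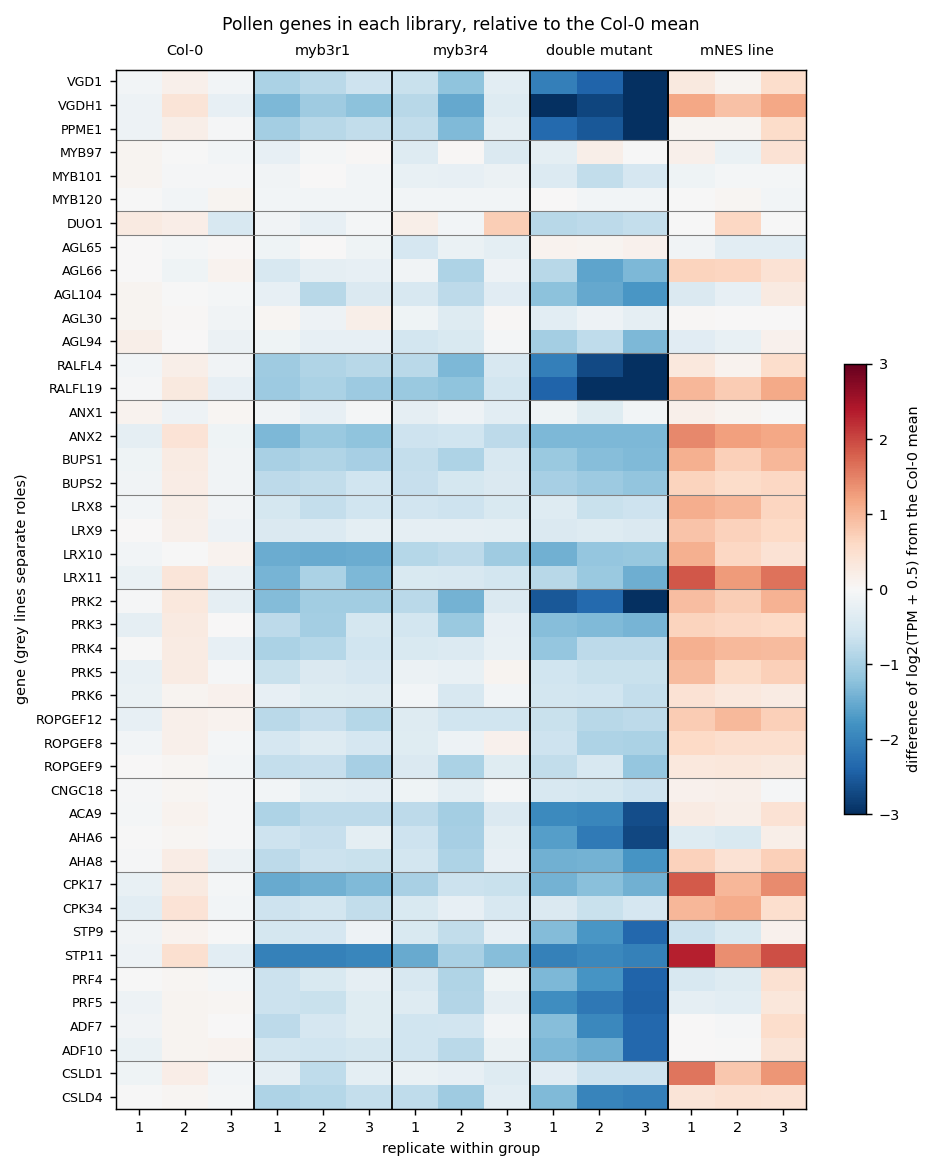
Colours give the difference of log2(TPM + 0.5) in each library (columns, 3 per group) from the Col-0 mean for each of the 44 genes (rows, in order of role, separated by grey lines). Blue is lower and red higher, cut at 3 in either direction, and the double mutant columns are blue for most rows, palest for MYB97, MYB120, AGL65, AGL30 and ANX1.

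Single libraries carried part of the spread. In the double mutant, replicate 3 had the lowest value of its group for 28 of 44 genes and replicate 1 the highest for 28. In myb3r4, replicate 2 was lowest for 26 and replicate 3 highest for 30. The double mutant count stayed between 34 and 36 when any one library was left out, and was 35 without replicate 3. The myb3r1 count fell to 6 without Col-0 replicate 2, which was the highest Col-0 library for 31 of the 44 genes, and to 7 without myb3r1 replicate 1. For myb3r4 it fell to 3 without Col-0 replicate 2 or without myb3r4 replicate 1, and to 2 when only the libraries of the compared groups entered the fit. Under every alternative the calls of STP11, LRX10, LRX11, CPK17, ANX2 and BUPS1 held in myb3r1, and in myb3r4 only that of LRX10. The mNES count fell to 9 of 36 tested genes without mNES replicate 1 and to 9 of 36 without mNES replicate 3. ROPGEF12, ROPGEF8 and CSLD1 did not pass the filter in these runs, so part of the drop came from the filter.

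Regulators of pollen gene expression ranged from a moderate fall to no call. The MIKC* gene AGL104 (AT1G22130) was present at 10.7, 10.02 and 9.76 TPM in Col-0, 8.497, 5.43 and 7.37 TPM in myb3r1, 7.19, 5.73 and 7.95 TPM in myb3r4, 4.07, 3.18 and 2.67 TPM in the double mutant, and 7.33, 8.499 and 12.3 TPM in the mNES line. Its 3 double mutant libraries lay below all others, and it fell (log2 fold change -1.50, SE 0.194, adjusted p = 5.16e-05). AGL66 (AT1G77980), its closest relative among the 44, fell as well (log2 fold change -1.26, SE 0.221, adjusted p = 0.000544), as did AGL94 (AT1G69540) (log2 fold change -1.04, SE 0.171, adjusted p = 0.000344). Double mutant and Col-0 libraries overlapped for neither gene.

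AGL65 (AT1G18750), the dimer partner of AGL66 and AGL104, did not follow them. It was measured at 4.41, 4.198 and 4.503 TPM in Col-0, 3.99, 4.43 and 3.98 TPM in myb3r1, 2.92, 3.75 and 3.49 TPM in myb3r4, 4.76, 4.64 and 4.86 TPM in the double mutant, and 4.04, 3.38 and 3.41 TPM in the mNES line. The double mutant libraries lay slightly above those of Col-0 (log2 fold change 0.11, SE 0.0944, adjusted p = 0.377), and above all myb3r4 libraries (log2 fold change 0.44, SE 0.0944, adjusted p = 0.00321). AGL30 (AT2G03060) stood at 9.97 to 14.8 TPM over all 15 libraries and missed the threshold in the double mutant (log2 fold change -0.26, SE 0.099, adjusted p = 0.0537). No MIKC* gene passed the threshold in either single mutant or in the mNES line.

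MYB101 (AT2G32460) was the only one of the pollen tube MYB genes with more than 1 TPM, at 11.6, 10.7 and 10.7 TPM in Col-0, 10.2, 11.2 and 10.3 TPM in myb3r1, 9.33, 9.21 and 9.66 TPM in myb3r4, 8.07, 6.35 and 7.64 TPM in the double mutant, and 9.99, 10.5 and 10.6 TPM in the mNES line. It fell in the double mutant (log2 fold change -0.55, SE 0.0755, adjusted p = 7.73e-05), where all 3 libraries lay below the rest. MYB97 (AT4G26930) stood at 0.156 to 0.70 TPM and MYB120 (AT5G55020) at 0 to 0.0557 TPM. DUO1 (AT3G60460), the MYB factor that the generative cell needs to divide and form sperm, read 1.62, 1.503 and 0.764 TPM in Col-0 and 0.486, 0.518 and 0.561 TPM in the double mutant. It was called lower there (log2 fold change -0.78, SE 0.25, adjusted p = 0.0234), but the call was lost when Col-0 replicate 1 or 2 or double mutant replicate 1 or 2 was left out, with an adjusted p of up to 0.0881. DUO1 overlaps a gene on the other strand by 10 bases.

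The pectin methylesterase genes VGD1 (AT2G47040) and PPME1 (AT1G69940) had the highest levels of the 44 in Col-0, and all 3 genes of this role fell in the double mutant. VGD1, which is needed for tube growth through the style, was measured at 164, 194 and 164 TPM in Col-0, 90.04, 99.5 and 113 TPM in myb3r1, 109, 74.6 and 139.7 TPM in myb3r4, 41.3, 32.5 and 17.5 TPM in the double mutant, and 211, 185 and 250.4 TPM in the mNES line. PPME1 gave nearly the same picture, with 165, 207 and 177 TPM in Col-0, 89.4, 102 and 109.6 TPM in myb3r1, 109, 72.8 and 149.6 TPM in myb3r4, 35.5, 30.9 and 14.7 TPM in the double mutant, and 193, 192 and 266 TPM in the mNES line. In both genes the group means had the same order, and every double mutant library lay below every other library. VGDH1 (AT2G47030), the neighbour of VGD1, was less abundant, with 21.1, 30.7 and 19.8 TPM in Col-0, 8.92, 10.9 and 9.72 TPM in myb3r1, 13, 7.78 and 17.9 TPM in myb3r4, 2.196, 3.02 and 0.231 TPM in the double mutant, and 53.01, 43.8 and 53.3 TPM in the mNES line.

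The falls brought the mean TPM to 5.71 times below Col-0 for VGD1 (log2 fold change -2.58, SE 0.265, adjusted p = 9.46e-06), 6.76 times for PPME1 (log2 fold change -2.82, SE 0.291, adjusted p = 9.51e-06) and 13.1 times for VGDH1 (log2 fold change -3.65, SE 0.448, adjusted p = 3.44e-05). They also fell from each single mutant to the double mutant, with fold changes between -1.79 and -2.74. None passed the threshold in myb3r1, myb3r4 or the mNES line. VGD1 and VGDH1 share 89.4% of 1935 aligned transcript bases, and PPME1 shares 95% of 1196 bases with PPME48, so reads may have been split between them. VGD1 and PPME1 made up 20.8% to 39.7% of the summed TPM of the 44 genes. Without them the sums still did not overlap, at 537.4 to 616.0 TPM in Col-0 and 122.6 to 203.8 TPM in the double mutant.

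Both RALF ligand genes fell steeply. RALFL4 (AT1G28270) was measured at 45.2, 54.6 and 44.8 TPM in Col-0, 22.7, 25.6 and 26.6 TPM in myb3r1, 27.04, 18.6 and 34.4 TPM in myb3r4, 11.3, 6.99 and 3.91 TPM in the double mutant, and 60, 51.8 and 69.6 TPM in the mNES line. RALFL19 (AT2G33775) was measured at 16.3, 20.5 and 13.9 TPM in Col-0, 7.57, 8.46 and 7.54 TPM in myb3r1, 7.45, 6.91 and 11.1 TPM in myb3r4, 2.75, 1.35 and 0.619 TPM in the double mutant, and 33.8, 28.7 and 37.2 TPM in the mNES line. For each gene the single mutants lay below Col-0 in every library and the double mutant lowest of all. In the double mutant the fall was 6.52 times in mean TPM for RALFL4 (log2 fold change -2.73, SE 0.282, adjusted p = 9.48e-06) and 10.7 times for RALFL19 (log2 fold change -3.19, SE 0.293, adjusted p = 4.12e-06). In the single mutants neither passed the threshold, with adjusted p from 0.0537 to 0.0765. RALFL19 was higher in the mNES line (log2 fold change 0.97, SE 0.293, adjusted p = 0.0379), a call lost when Col-0 replicate 1 or 3 or any mNES library was left out, with an adjusted p of up to 0.128.

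Of the 4 receptor genes of these peptides, BUPS1 (AT4G39110), BUPS2 (AT2G21480) and ANX2 (AT5G28680) were called in myb3r1, the double mutant and the mNES line, and ANX1 (AT3G04690) in no comparison with Col-0. BUPS2 and ANX2 each reached 1 TPM in only 1 library outside the mNES line. Their inclusion thus rested on a high level in that line, and their calls there are no support for a rise of the receptor genes. BUPS1 was measured at 3.94, 5.297 and 4.04 TPM in Col-0, 2.01, 2.12 and 1.93 TPM in myb3r1, 2.46, 2.06 and 3.03 TPM in myb3r4, 1.75, 1.53 and 1.45 TPM in the double mutant, and 9.801, 7.53 and 9.23 TPM in the mNES line. All libraries of both single mutants and the double mutant lay below Col-0, and all mNES libraries above. BUPS1 was called in all 4 comparisons with Col-0, with fold changes of -0.96 in myb3r1, -0.71 in myb3r4, -1.24 in the double mutant and 0.93 in the mNES line (SE 0.14 each, adjusted p from 1.88e-05 to 0.00904). The myb3r4 call was lost with only the compared groups in the fit (adjusted p = 0.0678). BUPS2 had the same directions at 0.129 to 1.76 TPM, but its calls in myb3r1 and the mNES line were lost in most runs that left out a library (adjusted p up to 0.114, without Col-0 replicate 2, and 0.0884, without Col-0 replicate 3).

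ANX1 and ANX2 differed. ANX2 was measured at 0.542, 1.18 and 0.652 TPM in Col-0, 0, 0.0859 and 0.0488 TPM in myb3r1, 0.327, 0.341 and 0.239 TPM in myb3r4, listed at 0 in all 3 libraries of the double mutant, and 2.94, 2.44 and 2.33 TPM in the mNES line. It passed the threshold as lower in myb3r1 (log2 fold change -1.22, SE 0.209, adjusted p = 0.00395) and in the double mutant (adjusted p = 0.000223), and as higher in the mNES line (log2 fold change 1.28, SE 0.209, adjusted p = 0.00125). ANX1 was measured at 4.66, 3.85 and 4.51 TPM in Col-0, 3.99, 3.59 and 4.17 TPM in myb3r1, 3.52, 3.84 and 3.37 TPM in myb3r4, 3.91, 3.23 and 4.05 TPM in the double mutant, and 4.897, 4.59 and 4.32 TPM in the mNES line. Its groups lay close together and no comparison passed the threshold, with log2 fold change -0.20, SE 0.101, adjusted p = 0.14 in the double mutant. ANX1 and ANX2 share 80.7% of 2587 aligned bases, and 278 bases of ANX1 overlap genes on the other strand.

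The LRX genes, whose wall proteins also bind RALF peptides, were called lower in myb3r1 and in the double mutant alike. LRX10 (AT2G15880) was measured at 8.21, 8.58 and 9.35 TPM in Col-0, 2.79, 2.74 and 2.79 TPM in myb3r1, 4.55, 4.798 and 3.88 TPM in myb3r4, 2.905, 3.62 and 3.703 TPM in the double mutant, and 18.8, 13.7 and 11.9 TPM in the mNES line. Every myb3r1 library lay below every double mutant library. LRX10 fell in myb3r1 (log2 fold change -1.49, SE 0.138, adjusted p = 4.25e-05), in myb3r4 (log2 fold change -0.91, SE 0.138, adjusted p = 0.00156) and in the double mutant (log2 fold change -1.24, SE 0.138, adjusted p = 1.66e-05), and rose in the mNES line (log2 fold change 0.71, SE 0.138, adjusted p = 0.00376). All 4 LRX genes were called higher in the mNES line. From myb3r1 to the double mutant their fold changes were -0.05 to 0.25, and none passed the threshold.

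LRX11 (AT4G33970) gave the largest rise of the 4 in the mNES line (log2 fold change 1.59, SE 0.219, adjusted p = 0.000407), from 1.26, 2.11 and 1.29 TPM in Col-0 to 6.87, 4.43 and 5.74 TPM. All 3 mNES libraries lay well above the others. Of the 4, LRX8 (AT3G19020) lost its myb3r1 call without Col-0 replicate 2 (adjusted p = 0.0531), and LRX9 (AT1G49490) lost it without Col-0 replicate 2, myb3r1 replicate 1 or myb3r1 replicate 2 (adjusted p up to 0.0782). An annotated RNA on the other strand overlaps 1186 bases of LRX11.

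**Figure D2:**
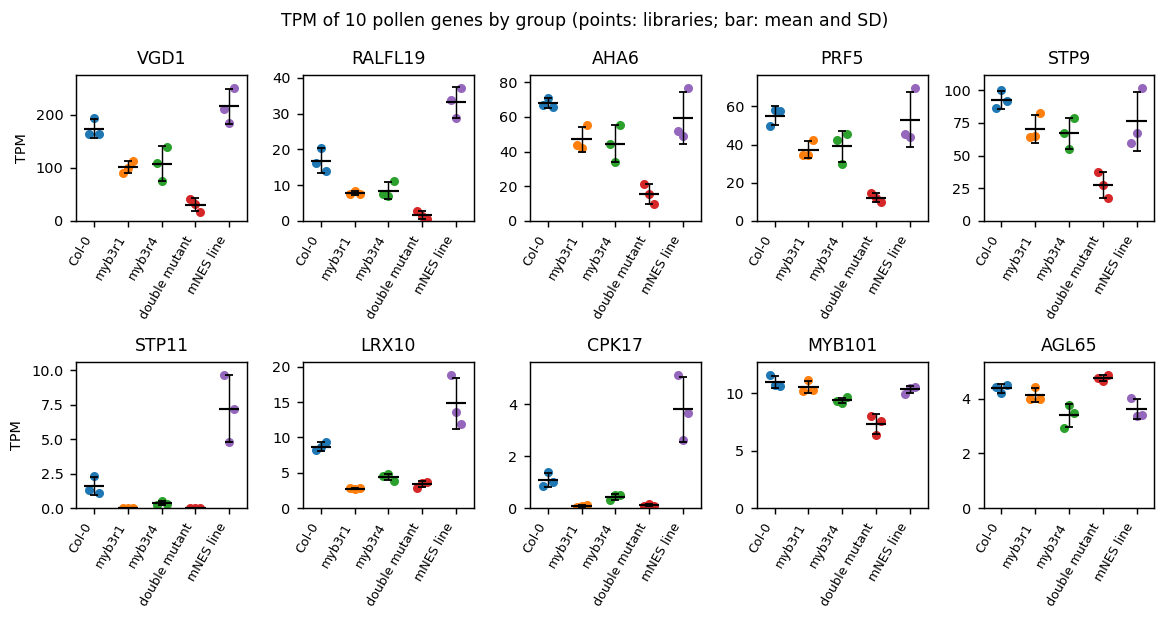
Each panel plots TPM on a linear axis from 0 for one gene, with a point per library, a line at the group mean and bars of 1 SD (n = 3). VGD1, RALFL19, AHA6, PRF5 and STP9 are lowest in the double mutant, whereas STP11, LRX10 and CPK17 are about as low in myb3r1, and AGL65 is not lower in the double mutant.

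Among the pollen receptor kinases PRK2 (AT2G07040) was the most abundant, at 7.95, 10.2 and 6.68 TPM in Col-0, 3.04, 3.74 and 3.72 TPM in myb3r1, 4.46, 2.74 and 5.91 TPM in myb3r4, 0.996, 1.22 and 0.142 TPM in the double mutant, and 15.98, 13.9 and 17.3 TPM in the mNES line. It fell 10.6 times in mean TPM in the double mutant (log2 fold change -2.88, SE 0.318, adjusted p = 1.59e-05), and replicate 3 was the lowest of its libraries. PRK3 (AT3G42880) and PRK4 (AT3G20190) fell too, with fold changes of -1.33 and -0.91. PRK4 was also called in myb3r1 (log2 fold change -0.80, SE 0.171, adjusted p = 0.0144) and the mNES line (log2 fold change 0.99, SE 0.171, adjusted p = 0.00168). Its myb3r1 call was lost without Col-0 replicate 2 (adjusted p = 0.0703) or without myb3r1 replicate 1. PRK4 overlaps its neighbour on the same strand by 15 bases. PRK5 (AT1G50610) and PRK6 (AT5G20690), the latter a sensor of attractant peptides from the ovule, stayed at or under 1.015 TPM in every library.

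The 3 ROPGEF genes, which link PRK kinases to ROP GTPases, lay between 0.0371 and 1.46 TPM in all libraries. All were called lower in the double mutant, with fold changes between -0.83 and -0.76. ROPGEF9 (AT4G13240) and ROPGEF12 (AT1G79860) were called in myb3r1, but ROPGEF9 lost this call without any one of the 6 libraries involved (adjusted p up to 0.133), and ROPGEF12 without 5 of them, Col-0 replicate 1 being the exception (adjusted p up to 0.134). ROPGEF12 was called higher in the mNES line (log2 fold change 0.82, SE 0.204, adjusted p = 0.0149), a call lost without Col-0 replicate 1 (adjusted p = 0.0624). Without any 1 mNES library it no longer passed the filter.

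Ion transport genes included some of the more abundant of the 44. The proton pump gene AHA6 (AT2G07560) was measured at 66.9, 71.2 and 66.01 TPM in Col-0, 43.8, 41.9 and 55.3 TPM in myb3r1, 44.3, 34.03 and 55.3 TPM in myb3r4, 21.3, 15.3 and 9.75 TPM in the double mutant, and 51.96, 49.2 and 76.8 TPM in the mNES line. The double mutant libraries lay apart from all others, and the fall from Col-0 was 4.41 times in mean TPM (log2 fold change -2.17, SE 0.245, adjusted p = 1.83e-05). AHA8 (AT3G42640) fell as well (log2 fold change -1.54, SE 0.155, adjusted p = 7.97e-06). ACA9 (AT3G21180), a calcium pump of the plasma membrane, was measured at 9.796, 11.1 and 9.98 TPM in Col-0, 5.19, 5.71 and 5.78 TPM in myb3r1, 5.78, 4.78 and 7.45 TPM in myb3r4, 2.39, 2.26 and 1.21 TPM in the double mutant, and 12.2, 11.8 and 14.1 TPM in the mNES line.

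ACA9 fell in the double mutant (log2 fold change -2.17, SE 0.179, adjusted p = 1.68e-06) and was called in myb3r1 (log2 fold change -0.83, SE 0.179, adjusted p = 0.0154) and myb3r4 (log2 fold change -0.75, SE 0.179, adjusted p = 0.024). The myb3r1 call was lost without Col-0 replicate 2 (adjusted p = 0.0667) or myb3r1 replicate 1, and the myb3r4 call without 5 of the 6 libraries (adjusted p up to 0.101, without myb3r4 replicate 2). AHA8 was called lower in both single mutants and higher in the mNES line, and each of these calls was lost without at least 3 of the 6 libraries, with an adjusted p of up to 0.0878 in myb3r1, 0.151 in myb3r4 and 0.073 in the mNES line. The calcium channel gene CNGC18 (AT5G14870) showed a smaller fall in the double mutant (log2 fold change -0.55, SE 0.0981, adjusted p = 0.00065), from 3.58, 3.81 and 3.57 TPM in Col-0 to 2.47, 2.37 and 2.197 TPM. ACA9 overlaps a gene on the other strand by 173 bases and AHA8 by 135.

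CPK17 (AT5G12180), a calcium-dependent kinase of pollen tube growth, was measured at 0.852, 1.401 and 1.005 TPM in Col-0, 0.0524, 0.0786 and 0.132 TPM in myb3r1, 0.296, 0.501 and 0.491 TPM in myb3r4, 0.0922, 0.157 and 0.0766 TPM in the double mutant, and 5.12, 2.63 and 3.68 TPM in the mNES line. It was called lower in myb3r1 (log2 fold change -1.42, SE 0.223, adjusted p = 0.00226) and in the double mutant (log2 fold change -1.37, SE 0.223, adjusted p = 0.000307), and higher in the mNES line (log2 fold change 1.42, SE 0.223, adjusted p = 0.000959). Levels in myb3r1 and the double mutant overlapped. CPK34 (AT5G19360), which shares 83.3% of 1789 aligned bases with CPK17, stayed at or below 1.32 TPM and was not tested after the filter.

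The pair of hexose transporter genes differed. STP9 (AT1G50310) was measured at 86.5, 100.2 and 91.7 TPM in Col-0, 64.1, 64.7 and 82.9 TPM in myb3r1, 67.1, 55.2 and 78.5 TPM in myb3r4, 37.1, 27.3 and 17.6 TPM in the double mutant, and 59.4, 66.98 and 102 TPM in the mNES line. It fell in the double mutant (log2 fold change -1.80, SE 0.239, adjusted p = 6.3e-05) and also from myb3r1 to the double mutant (log2 fold change -1.40, SE 0.239, adjusted p = 0.000765), while its mNES libraries overlapped with Col-0 (log2 fold change -0.32, SE 0.239, adjusted p = 0.397). STP11 (AT5G23270) was measured at 1.32, 2.32 and 1.12 TPM in Col-0, 0, 0 and 0.0234 TPM in myb3r1, 0.211, 0.534 and 0.338 TPM in myb3r4, 0, 0.0276 and 0 TPM in the double mutant, and 9.64, 4.8 and 7.201 TPM in the mNES line. It was near 0 in every myb3r1 and double mutant library and above Col-0 in every mNES library.

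STP11 was called lower in myb3r1 (log2 fold change -2.00, SE 0.256, adjusted p = 0.000598), myb3r4 (log2 fold change -1.25, SE 0.256, adjusted p = 0.0111) and the double mutant (log2 fold change -1.99, SE 0.256, adjusted p = 4.95e-05), and higher in the mNES line (log2 fold change 1.88, SE 0.256, adjusted p = 0.000397). The myb3r4 call was lost with only the compared groups in the fit (adjusted p = 0.0586). Between myb3r1 and the double mutant its fold change was 0.00 (SE 0.257, adjusted p = 0.998). The promoter window of STP9, shown above, holds a CArG box and that of STP11 does not. LRX10, called in myb3r1 like STP11, holds a box as well, and PRF5, not called there like STP9, holds none. A link between the box and the level of a gene was not tested. STP9 overlaps a gene on the other strand by 66 bases.

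Actin regulators changed together. PRF5 (AT2G19770), a pollen profilin, was measured at 49.6, 58.2 and 57.6 TPM in Col-0, 34.7, 34.6 and 42.6 TPM in myb3r1, 42.1, 29.9 and 45.4 TPM in myb3r4, 14.7, 12.1 and 9.77 TPM in the double mutant, and 45.4, 44.1 and 69.7 TPM in the mNES line. Its double mutant libraries lay below all others (log2 fold change -2.15, SE 0.193, adjusted p = 3.27e-06). PRF4 (AT4G29340), ADF7 (AT4G25590) and ADF10 (AT5G52360) were present at 57.1 to 61.9, 28.8 to 33.1 and 32.3 to 40.1 TPM in Col-0, and at 10.7 to 22.8, 5.71 to 12.6 and 6.88 to 14.2 TPM in the double mutant. All 4 fell there, with fold changes between -2.15 and -1.72 and adjusted p between 3.27e-06 and 0.000144. None passed the threshold in a single mutant or in the mNES line, where their fold changes were -0.14 to 0.17. ADF7 and ADF10 share 85.1% of 415 aligned bases.

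The cellulose synthase-like genes, which act in the wall of the growing tube, split. CSLD4 (AT4G38190) was measured at 2.29, 2.43 and 2.17 TPM in Col-0, 0.964, 1.03 and 1.19 TPM in myb3r1, 1.16, 0.844 and 1.73 TPM in myb3r4, 0.615, 0.208 and 0.177 TPM in the double mutant, and 3.16, 3.36 and 3.27 TPM in the mNES line. It fell in the double mutant (log2 fold change -1.78, SE 0.205, adjusted p = 2.11e-05). Its myb3r1 call (log2 fold change -0.84, SE 0.205, adjusted p = 0.028) was lost on leaving out any of the 6 libraries (adjusted p up to 0.0996, without Col-0 replicate 2). CSLD1 (AT2G33100) was measured at 0.578, 0.842 and 0.611 TPM in Col-0, 0.475, 0.188 and 0.452 TPM in myb3r1, 0.516, 0.483 and 0.401 TPM in myb3r4, 0.426, 0.265 and 0.262 TPM in the double mutant, and 3.07, 1.56 and 2.42 TPM in the mNES line. Its level in the mNES line, through which it passed the filter, was higher than in Col-0 (log2 fold change 1.25, SE 0.225, adjusted p = 0.00223), and its difference in the double mutant missed the threshold (log2 fold change -0.52, SE 0.225, adjusted p = 0.0774).

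**Figure D3:**
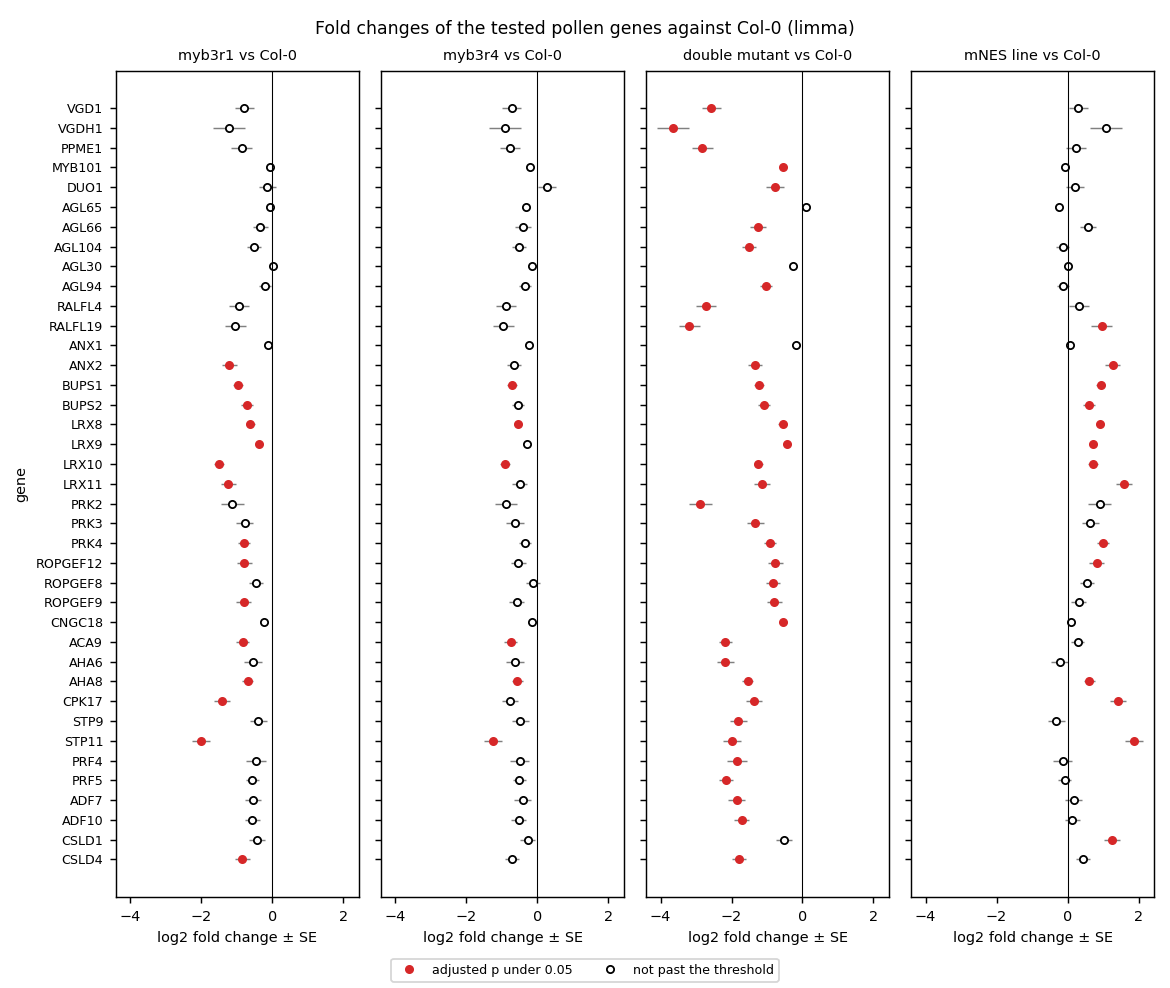
Log2 fold change with its SE against Col-0 for the 39 tested genes (rows) in the 4 other groups (panels), filled red where the adjusted p is under 0.05. Red points lie left of 0 for 15, 6 and 35 genes in myb3r1, myb3r4 and the double mutant, and right of 0 for 14 genes in the mNES line.

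The double mutant lay below myb3r1 for some roles, while others missed the threshold. From myb3r1 to the double mutant, 21 of 39 genes were lower and 0 higher, against 12.9% lower and 17.2% higher among all genes. These were all pectin methylesterase, RALF, actin and ion transport genes, 4 of 5 MIKC* genes, MYB101, PRK2, STP9 and CSLD4. AGL30 and CNGC18 lost this call without some libraries (adjusted p up to 0.182, without myb3r1 replicate 3, and 0.112, without myb3r1 replicate 1). None of the ANX, BUPS, LRX and ROPGEF genes passed the threshold here. Among them, ANX2 (0 to 0.0859 TPM) and ROPGEF12 (0.0371 to 0.0961 TPM) were already near 0 in myb3r1, so little further fall could be measured. A missed threshold does not show that the levels were alike.

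From myb3r4 to the double mutant, 29 were lower (14.6% of all genes) and AGL65 was the 1 gene higher (20.1% of all genes). Of these 30 calls, 21 held under every alternative, and the count fell to 23 without myb3r4 replicate 3. Under median-of-ratios scaling the split over all genes went from 3743 higher and 2807 lower to 2706 and 3501 for the comparison with myb3r1, and from 4365 and 3179 to 3141 and 3932 for that with myb3r4. The pollen gene counts were 21 and 29 lower under that scaling. Whether the effect of myb3r4 differed with and without MYB3R1 was tested by an interaction term, which 5 of 39 genes passed (12.8%), against 12.3% of all genes. These were 4 positive values and 1 negative, against 1371 and 1294 of all genes. Without double mutant replicate 1 the term was passed by 11 genes, 2 positive and 9 negative, against 1034 and 1201 of all genes, so the share and the split both changed without that library.

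Most of the abundant genes missed the threshold in the mNES line. STP11, LRX11, CPK17, ANX2 and CSLD1, each at or under 2.32 TPM in Col-0, had the 5 largest fold changes of the 14, between 1.25 and 1.88. ANX2, CPK17 and CSLD1 reached 1 TPM in 1, 2 and 0 libraries outside the mNES line, so their inclusion rested on a high level there, and a link between a low level and a large rise is not shown. Among the genes with a Col-0 mean above 20 TPM, AHA8 passed the threshold (log2 fold change 0.61, SE 0.155, adjusted p = 0.0169). VGDH1 did not, with a larger difference and a wider error (log2 fold change 1.07, SE 0.448, adjusted p = 0.119). The others, VGD1, PPME1, RALFL4, AHA6, STP9, PRF4, PRF5, ADF7 and ADF10, did not pass it either, and their fold changes lay between -0.32 and 0.32. Of the 14 calls, 10 held under every alternative in which the gene was tested, and CSLD1, one of them, was not tested when any mNES library was left out. BUPS2, RALFL19, AHA8 and ROPGEF12 did not.

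A further 30 pollen genes, chosen by function with earlier results of these data known, were counted in the same comparisons. Of 23 tested, 22 were lower in the double mutant, 7 in myb3r1 and 5 in myb3r4, and 7 were higher in the mNES line. The shares over all genes were 17.1%, 3.1%, 3.04% and 7.6%. A gene could pass the filter through the mNES line alone, and how many of the 23 did was not counted. The count for that line is therefore no support for a rise of the list. Their summed level was 425.5 to 505.2 TPM in Col-0 and 87.2 to 147.6 TPM in the double mutant. PPME48, a pectin methylesterase gene, fell from 264, 315 and 266 TPM in Col-0 to 73.96, 61.1 and 34.4 TPM in the double mutant (log2 fold change -2.37, SE 0.245, adjusted p = 9.52e-06). The formin gene FH3 was the 1 tested gene not called in the double mutant (log2 fold change 0.25, SE 0.235, adjusted p = 0.428).

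Marker lists of other cells in the anther did not all move alike, and that of sperm and the generative cell fell with the pollen genes. Genes of sperm and the generative cell summed to 32.4 to 39.7 TPM in Col-0, 4.19 to 9.57 TPM in the double mutant and 46.0 to 54.9 TPM in the mNES line. Of 8 tested, 6 were lower in the double mutant, against 17.1% of all genes. In the mNES line the fold changes of the 8 ran from -0.08 to 0.99 and none passed the threshold, against 7.6% of all genes higher and 9.39% lower. HTR10, a sperm histone gene, was at 8.43, 9.93 and 8.17 TPM in Col-0 and 1.36, 1.64 and 0.696 TPM in the double mutant, whereas the defining genes GEX2 and GEX3 stayed under 0.7 TPM in every library.

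The tapetum, the anther layer that feeds young pollen, had higher marker levels in the double mutant and lower ones in the mNES line. Its 13 markers summed to 1310.5 to 1563.8 TPM in Col-0, 1557.1 to 1876.6 TPM in myb3r1, 1220.9 to 1476.4 TPM in myb3r4, 2148 to 2540.4 TPM in the double mutant and 679 to 1049.9 TPM in the mNES line. In the double mutant 12 were higher and 0 lower, against 24.5% and 17.1% of all genes. In the mNES line 11 were lower and 0 higher, against 9.39% and 7.6%. The median fold change was 0.22 in myb3r1 and -0.13 in myb3r4, and the sums of both groups overlapped with those of Col-0. A9, a tapetum gene, was at 346, 279 and 288 TPM in Col-0, 566, 539.9 and 642 TPM in the double mutant and 144, 254 and 243 TPM in the mNES line.

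Of 7 meiocyte markers tested, 5 were higher in the double mutant, against 24.5% of all genes. In the mNES line 1 was lower, close to the 9.39% of all genes. They summed to 33.6 to 35.6 TPM in Col-0, 47.4 to 47.8 TPM in the double mutant and 27.6 to 32.0 TPM in the mNES line. Shoot and floral meristem genes summed to 263 to 278 TPM in Col-0, 257.9 to 284.6 TPM in the double mutant and 228.6 to 266.9 TPM in the mNES line. Of 8 tested, 3 were higher and 1 lower in the double mutant, against 24.5% and 17.1% of all genes. Their fold changes there ran from -0.62 to 1.19. In the mNES line 0 were higher and 2 lower, against 7.6% and 9.39%. The part of these other cell types in the pollen gene result was not tested.

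**Figure D4:**
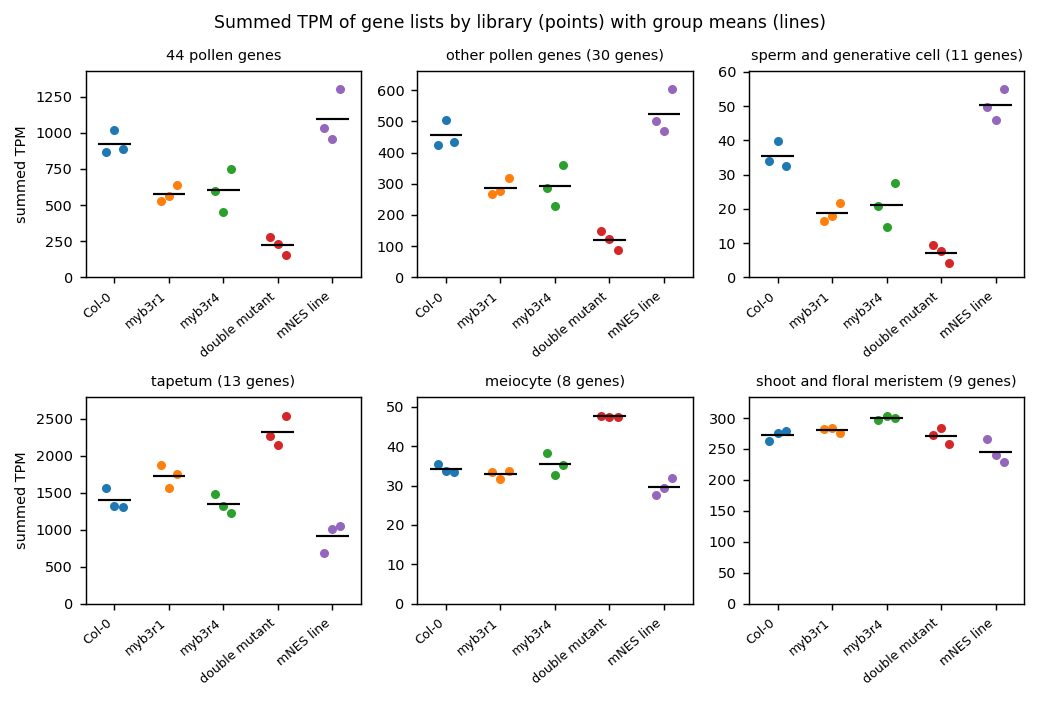
Summed TPM of 6 gene lists (panels, linear axes from 0), with a point per library and a line at the group mean. The 44 pollen genes, the other pollen genes and the sperm genes are lowest in the double mutant and highest in the mNES line by group mean, while the tapetum and meiocyte sums are highest in the double mutant and lowest in the mNES line.

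Over all 44 genes the summed level was 866 to 1016 TPM in Col-0, 530.1 to 636.6 TPM in myb3r1, 455 to 753 TPM in myb3r4, 155 to 280.5 TPM in the double mutant and 957 to 1300.4 TPM in the mNES line. The double mutant sums lay below every other library, the single mutant sums below Col-0, and the mNES sums overlapped with those of Col-0.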

How the data were processed

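RNA from 15 libraries of dissected inflorescence meristems was analysed as 5 groups of 3, taken from the labels. The deposited values were TPM per gene, which the authors scaled to a sum of 1000000 per library. Per the submitters' processing notes, Salmon, FastQC and TAIR10 were used, without versions, and how transcripts were summed to genes is not given in the sources used here. TPM keeps no read totals, so depth and counting error are unknown.

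The members and the gene lists were chosen with earlier results of these data known. All members could be named. Those with the largest or smallest change of their role get full values. Genes with at least 1 TPM in at least 3 libraries (21737 of 33326) were fitted with limma 3.58.1 in R 4.3.3 on log2(TPM + 0.5), with 5 group means, 10 residual degrees of freedom and a variance trend. Tests were two-sided, with Benjamini-Hochberg adjustment over all tested genes and a threshold of 0.05. The fit was tested on simulated data. No set test was run. Positions and promoters came from the TAIR10.1 RefSeq annotation, and 2 box sequences are not reported here. Alternatives covered the pseudocount, the filter, the scaling, the libraries fitted and the replicate block. Same-numbered libraries did not deviate together (30 pairs, r from -0.126 to 0.0885), so the numbers, which the shift experiment label repeats, were not taken as pairs. No 2 libraries were identical.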

Additional observations from a re-analysis of the deposited data

Results flagged for a closer look

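For 5 pollen genes the effect of myb3r4 differed between the wild-type and the myb3r1 background, by the interaction term of the limma fit. The values below are the log2 effect of myb3r4 in the myb3r1 background minus that in the wild-type background. As given above, 5 of 39 genes (12.8%) is close to the 12.3% of all genes tested, and without double mutant replicate 1 the count was 11, with 2 positive and 9 negative.

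LRX10 gave 1.16 (SE 0.2, adjusted p = 0.0023) and kept this call under every alternative tried. Its myb3r4 effect was -0.91 against Col-0 and 0.25 against myb3r1. STP11 gave 1.26 (adjusted p = 0.0386), with effects of -1.25 and 0.00. STP11 stood at 0 to 0.0276 TPM in every myb3r1 and double mutant library, so no further fall could be measured there. Both genes had their lowest group mean in myb3r1. LRX8 gave 0.61 (adjusted p = 0.0387), with effects of -0.55 and 0.06.

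AGL65 gave 0.51 (adjusted p = 0.0247), with effects of -0.33 and 0.18. PRF5 was the 1 gene of the 5 with a negative value, -1.08 (adjusted p = 0.0215), with effects of -0.51 and -1.59. Leaving out single libraries lifted the adjusted p to at most 0.0829 for STP11 (without Col-0 replicate 2), 0.0893 for LRX8 (without myb3r1 replicate 2), 0.0574 for AGL65 (without double mutant replicate 3) and 0.055 for PRF5 (without myb3r4 replicate 3). Such calls were lost in 10, 9, 5 and 4 of 12 runs.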

How the results depend on the processing

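The number of pollen genes called in the double mutant was 34 to 36 when a library was left out and 35 to 38 under the other alternatives, against 35. In myb3r1 it was 6 to 13 without a library and 13 to 22 otherwise, against 15. In myb3r4 it was 3 to 8 without a library, against 6, 11 with the filter at 0.1 TPM in at least 3 libraries, and 2 with only the compared groups. In the mNES line it was 9 to 14 and 11 to 17, against 14, with 36 genes tested when an mNES library was left out. From the single mutants to the double mutant it was 19 to 21 (myb3r1) and 23 to 28 (myb3r4) without a library, against 21 and 30, and for the interaction 1 to 11, against 5. Over all genes, leaving out a library lowered the count to at least 663 in myb3r1 (from 1360) and 831 in myb3r4 (from 1650), and fitting only the compared groups gave 765 in myb3r4 and 2078 in the mNES line (from 3695). With the replicate block the pollen gene counts were 13 (myb3r1), 5 (myb3r4), 35 (double mutant), 13 (mNES line), 20 and 29 (double mutant against myb3r1 and myb3r4) and 4 (interaction), with adjusted p from 0.0557 to 0.0687 for the calls it ended (ROPGEF9 and ROPGEF12 in myb3r1, AHA8 in myb3r4, RALFL19 in the mNES line, AGL30 from myb3r1 to the double mutant, STP11 from myb3r4 to it and in the interaction). Of 126 called fold changes of pollen genes, 92 kept direction and side of the threshold under every alternative that tested them, and 0 of 1788 recomputed values reversed. The cause was not tested. TPM gives no depth, so the precision of genes under 1 TPM cannot be stated.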

Other observations

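Of 5 genes of the egg cell, the female gamete, tested with limma, EC1.1 and EC1.5 were called higher in the mNES line than in Col-0. Neither reached 1 TPM in any library outside the mNES line, so both were tested only through their level there and the count is no support for a rise of the list. EC1.1, which encodes a protein the egg cell secretes at fertilization, was at 0, 0.382 and 0.116 TPM in Col-0 and 2, 1.08 and 2.27 TPM in the mNES line (log2 fold change 1.78, SE 0.278, adjusted p = 0.000924). EC1.5 was called too (log2 fold change 1.27, SE 0.33, adjusted p = 0.0181), with 0.641, 0.835 and 0.527 TPM in Col-0 and 2.49, 2.82 and 1.73 TPM in the mNES line. For both genes the 3 mNES libraries lay above every other library, which passing the filter required of them, so this separation is no further result. The summed level of 6 egg cell and synergid genes was 11.5 to 16.2 TPM in Col-0, 10.8 to 12.5 TPM in the double mutant and 23.4 to 28.5 TPM in the mNES line. In myb3r1 it was 11.1 to 11.8 TPM, and in myb3r4 it was 6.54 to 10.8 TPM, below every Col-0 library. Called lower were EC1.5 in myb3r1 (adjusted p = 0.0455), where it is listed at 0 in all 3 libraries, and EC1.4 in myb3r4 (log2 fold change -0.65, SE 0.155, adjusted p = 0.0235). In the double mutant the fold changes of the 5 genes ran from -0.70 to -0.10, and none passed the threshold. The synergid gene MYB98 stayed at or under 0.14 TPM in every library.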
